A study of Mus musculus with 24 samples.

Results

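The acute-phase serum proteins described here were 10 genes of the 54532 counted in mouse liver RNA-seq, chosen by name as the serum amyloid A genes (Saa1, Saa2, Saa3 and Saa4), the orosomucoid genes (Orm1, Orm2 and Orm3), haptoglobin (Hp), hemopexin (Hpx) and lipocalin 2 (Lcn2). All 10 were found in the count table, and each had counts in every one of the 24 libraries. The study asked how the fasted liver changes when Rab30, a small GTPase of the secretory pathway, or Cpt2, the carnitine palmitoyltransferase that mitochondria need to oxidise long-chain fatty acids, is lost. Whole livers of male C57BL/6J mice aged 8 to 10 weeks were collected after a 24 h fast, with 4 livers in each of 6 groups. The Rab30L-/-, Cpt2L-/- and DKO groups had lost Rab30, Cpt2 or both through an albumin-Cre transgene, which acts in hepatocytes and leaves the other liver cells with both genes. The ff;ff group carried both floxed genes without Cre and came from the same litters as the DKO mice. The floxed Rab30 allele loses exon 4, and the same exon was deleted by CRISPR in every tissue of the Rab30KO mice, whose wild-type littermates formed the Rab30 Ctrl group. The litters' own controls of Rab30L-/- and Cpt2L-/- were not analysed here.

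The acute-phase response is the change in liver secretion that follows infection or injury. Cytokines such as interleukin 6 and interleukin 1 reach the hepatocyte, where the factors STAT3, NF-kB and C/EBP raise the genes for serum amyloid A, orosomucoid, haptoglobin, hemopexin and others, while albumin and several carriers fall. Saa1 and Saa2 are the strongly inducible serum forms, Saa3 is made largely outside hepatocytes, and Saa4 is known as the constitutive form carried on high density lipoprotein. Orosomucoid is an abundant serum glycoprotein that binds small lipophilic molecules, haptoglobin captures free haemoglobin, hemopexin captures free haem, and Lcn2 binds the iron carriers of bacteria and is also stored in neutrophil granules.

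The 4 Saa genes lie together within 42.3 kb of chromosome 7 (chr7:46711998-46754313, GRCm38), and the 3 Orm genes lie within 21.3 kb of chromosome 4 (chr4:63344560-63365878). Hpx is on chromosome 7 as well (chr7:105591613-105600137), 12.7 Mb from Rab30, and the Saa genes are 46.0 Mb from Rab30. Hp is on chromosome 8 (chr8:109575128-109579172) and Lcn2 on chromosome 2 (chr2:32384633-32388252). RefSeq promoter windows of the same build were at hand for 8 of the 10 genes, all but Orm1 and Hp. Within the 250 bases before the start, 8 of those 8 windows held the C/EBP letters TTGCNNAA on at least one of both strands, against 9.56% of 32851 windows of all genes. The letters were chosen after some of these windows had been read, and a match is a description and not a binding site. The short windows printed here are shown because they hold that shared element in genes whose levels are compared later. Each runs 5′ to 3′ on the strand of its gene, with the matching letters in capitals.
Saa1, chr7:46743135-46743182, minus strand: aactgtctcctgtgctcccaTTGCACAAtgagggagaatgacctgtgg
Saa2, chr7:46751630-46751677, plus strand: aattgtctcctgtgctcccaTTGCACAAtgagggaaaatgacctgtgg
Saa3, chr7:46715748-46715795, minus strand: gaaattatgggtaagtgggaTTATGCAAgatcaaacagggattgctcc
Saa4, chr7:46732628-46732675, minus strand: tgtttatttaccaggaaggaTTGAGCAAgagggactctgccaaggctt
Orm2, chr4:63362309-63362356, plus strand: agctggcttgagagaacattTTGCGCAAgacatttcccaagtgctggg
Orm3, chr4:63356017-63356064, plus strand: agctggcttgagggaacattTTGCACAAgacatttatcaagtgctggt
Hpx, chr7:105600289-105600336, minus strand: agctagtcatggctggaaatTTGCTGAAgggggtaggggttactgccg

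Over the whole 250 bases, Saa1 and Saa2 were 94.8% identical and Orm2 and Orm3 were 85.5% identical, whereas Saa1 and Saa4 shared 42.6% of their letters. The NF-kB letters GGGNNNNNCC were in 4 of the 8 windows (Saa1, Saa2, Saa4 and Lcn2), close to the 45.8% of all windows. The glucocorticoid half-site letters AGAACA were in 1 of the 8 windows, that of Orm2, where they lie beside the C/EBP letters, against 16.1% of all windows. The STAT letters TTCNNNGAA were in 0 of the 8 windows, against 7.02% of all windows. The 250 bases of Saa1 (chr7:46742981-46743230) and Saa4 (chr7:46732604-46732853) are printed whole, since these inducible and constitutive genes lie in the same cluster and are set against each other later.
Saa1: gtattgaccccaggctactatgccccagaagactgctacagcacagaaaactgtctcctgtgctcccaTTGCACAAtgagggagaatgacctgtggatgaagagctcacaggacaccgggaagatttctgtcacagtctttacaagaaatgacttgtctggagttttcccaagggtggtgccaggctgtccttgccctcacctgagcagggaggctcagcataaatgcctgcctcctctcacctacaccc
Saa4: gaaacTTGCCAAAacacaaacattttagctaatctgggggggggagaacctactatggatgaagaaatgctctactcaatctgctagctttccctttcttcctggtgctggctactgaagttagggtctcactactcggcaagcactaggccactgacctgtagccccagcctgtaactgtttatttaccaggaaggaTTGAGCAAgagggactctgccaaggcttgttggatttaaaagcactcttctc

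Counts per library summed to 11801027 to 24497738, and the 10 genes took 0.2869% to 2.911% of them. Libraries of one group differed from each other by more than counting noise in all 36 pairs. Whole-gene counts cannot check the labels of the knockouts. Rab30 was at 12.42, 5.381, 9.592 and 17.38 CPM (counts relative to the TMM-scaled library total) in the libraries labelled Rab30KO and at 30.07, 11.25, 6.631 and 8.536 in Rab30 Ctrl, and it was higher in DKO (100.8 to 231.2) than in ff;ff (25.84 to 44.6). Only exon 4 is deleted, so reads from the remaining exons are counted in every group. Cpt2 was at 95.24 to 167.1 CPM in Cpt2L-/-, 95.99 to 119.9 in DKO and 127.9 to 138.9 in ff;ff. The hepatocyte markers (Alb, Ttr, Apob, Cps1, Hnf4a and Serpinc1) were present in all libraries, with summed levels of 42400 to 51000 CPM in Cpt2L-/-, 58300 to 73000 in DKO and 74400 to 124000 in the other groups. In whole tissue, fewer cells of a type and less RNA per cell cannot be told apart.

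Per length, hemopexin and haptoglobin were the leading members. In ff;ff the median FPKM (fragments scaled to gene length and depth, as the authors calculated it) was 2331 for Hpx and 2016 for Hp, and the ranges of these genes overlapped. Orm1 followed at 473.1 and Saa4 at 98.52, neither overlapping its neighbours above. From below, the ranges of Saa1 and Orm2 (3.826 to 86.21) overlapped that of Saa4 (80.12 to 116.1). Saa1 stood at 15.17, Orm3 at 9.408, Orm2 at 6.695, Lcn2 at 3.081 and Saa2 at 2.412, with overlapping ranges from Saa1 (5.277 to 153.4) down to Saa2 (0.9614 to 58.62). Saa3 was lowest at 0.8451 and overlapped Saa2. The authors' length for Saa1 was 2478 bases, 99.8% of the gene, against a spliced transcript of 609 bases, so its FPKM understates the level per spliced transcript, and the same holds for Saa2 (2518 against 606 bases) and Saa3 (2606 against 555 bases). The counted length of Lcn2 (2623 bases) was likewise 72.5% of its gene. The order of these 4 genes among the members therefore rests on the length used. The coding sequences of Saa1 and Saa2 were 95.1% identical, but no stretch of 100 bases was shared between their transcripts. Orm1 and Orm2 shared 6.95% of such stretches, so part of their reads may be divided between them.

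The levels of Saa1 and Saa2 set single livers apart within a genotype. In Rab30L-/- Saa1 was at 583.3, 3125, 52.44 and 89.71 CPM in replicates 1 to 4, and in ff;ff it was at 53.59, 20.2, 12.74 and 377.4. In Cpt2L-/- it was at 1.152, 4.842, 12.16 and 5.801, and in DKO at 5.719, 5.35, 4.028 and 6.093. Replicate 2 of Rab30L-/- stood highest, replicate 1 of Rab30L-/- and replicate 4 of ff;ff came next, and every library of both Cpt2-deleted groups lay below every library of ff;ff and Rab30L-/-. Saa2 had the same leading livers, with 260.1, 2477, 11.9 and 18.2 CPM in Rab30L-/-, 8.641, 2.363, 3.273 and 146.6 in ff;ff and no more than 2.523 in Cpt2L-/- and 1.096 in DKO. Within groups, the SD of log2 CPM was 1.99 for Saa2, 1.75 for Orm2 and 1.66 for Saa1, ranks 27, 40 and 54 of 12758 genes, where the median gene had 0.306. Lcn2 had 1.47, Orm3 1.31, Saa3 0.923 and Orm1 0.669. Saa4 had 0.569, Hpx 0.499 and Hp 0.449.

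**Figure D1:**
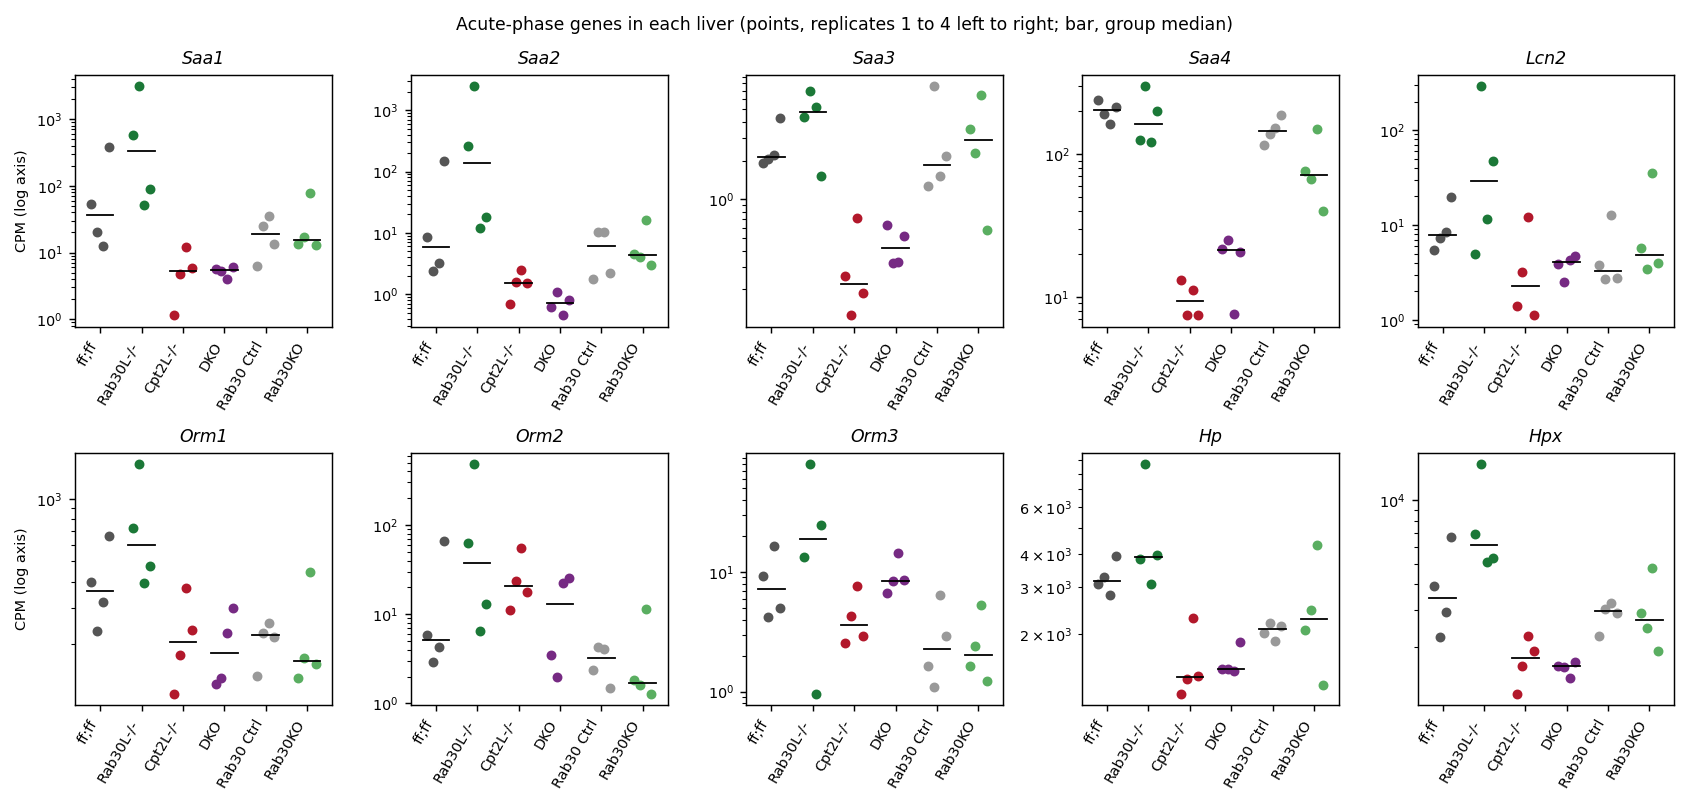
Level of each gene in CPM (log axis) in each liver, 4 livers per group, with the group median as a bar. Saa4, Hp and Hpx were called lower in Cpt2L-/- against ff;ff and in DKO against Rab30L-/-. Hp in Rab30 Ctrl (1878 to 2200 CPM) and Rab30KO (1282 to 4315 CPM) overlapped Cpt2L-/- (1192 to 2286 CPM). Saa1, Saa2, Orm2 and Lcn2 spread widely among livers of one group, with replicate 2 of Rab30L-/- highest for Saa1 at 3125 CPM.

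Loss of Cpt2 went with lower levels of Saa4, Saa3, Hp and Hpx whether Rab30 was present or not. Cpt2L-/- was compared with ff;ff, and DKO with Rab30L-/-, with edgeR (quasi-likelihood F test, p-values adjusted by Benjamini-Hochberg over all genes), and a gene was called when its adjusted p was below 0.05 and its fold change 1.2 or more. In Cpt2L-/- against ff;ff, 4 of the 10 members were called lower and 0 higher, beside 11.9% of all 13270 genes tested called lower and 23.8% called in either direction. In DKO against Rab30L-/-, 7 of the 10 were called lower and 0 higher, beside 15.8% called lower and 30.7% in either direction. These comparisons share no library. The median log2 fold change of the members was -1.21 in the first and -3.31 in the second, where the median of all genes was close to 0 in both (-0.0035 and -0.012). The first was -1.93 without Cpt2L-/- replicate 3, and the second -2.15 without Rab30L-/- replicate 2. Every Cpt2L-/- library lay below every ff;ff library for 4 of the 10 members (12.5% of all genes), and every DKO library below every Rab30L-/- library for 8 of the 10 (15.5% of all genes). In DKO against ff;ff, which shares the ff;ff libraries with the first comparison, 5 of the 10 were called lower, beside 8.24% of all genes called lower and 16.1% in either direction, and 7 did not overlap (9.92%). There Saa1 was at -4.44 ± 1.25 and Saa2 at -5.73 ± 1.78, neither called (adjusted p = 0.0595 and 0.0802, edgeR). Both passed the threshold without ff;ff replicate 4, at smaller changes (-2.44 and -2.65, adjusted p = 0.00661 and 0.00677, edgeR), and in the fit over all 24 libraries (0.0249 and 0.0295). DESeq2 called Saa1 (0.000178), and leaving out single livers gave 4 to 6 called members.

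**Figure D2:**
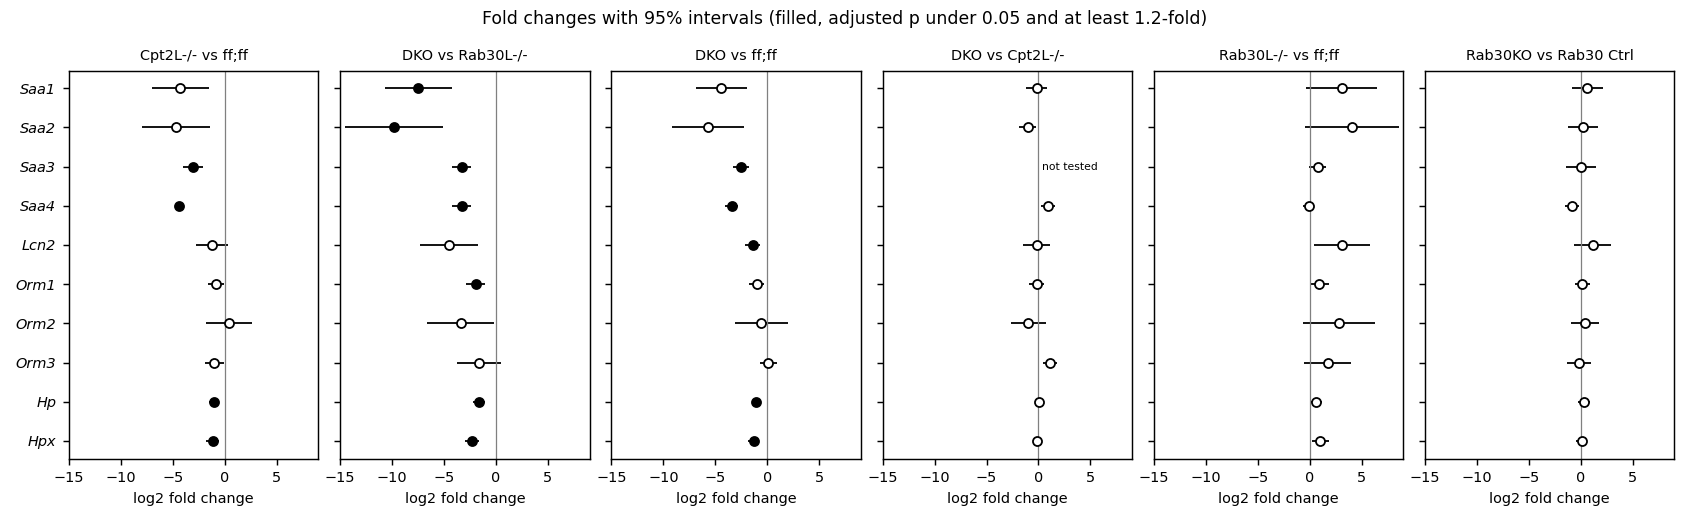
Log2 fold change of each gene in the 6 comparisons (x axis), with normal-quantile 95% intervals of the SE as lines, filled where called. With few livers these intervals are narrower than the F test implies. That of Orm2 in DKO against Rab30L-/- left out 0 (-6.61 to -0.167) at an unadjusted p of 0.0823 (edgeR). The interval of Saa4 in Cpt2L-/- against ff;ff ran from -4.81 to -3.94, and that of Saa1 in the same comparison from -7.00 to -1.56.

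Saa4, the form named constitutive, showed the clearest difference of the Saa genes. It was at 239, 192.3, 163.5 and 214.1 CPM in ff;ff and at 125.7, 300.9, 122.5 and 199.7 in Rab30L-/-. In Cpt2L-/- it was at 13.19, 7.42, 11.19 and 7.485, and in DKO at 21.69, 25.14, 7.537 and 20.76. These groups with and without Cpt2 did not overlap, with 25.14 the highest Cpt2-deleted and 122.5 the lowest intact level. The log2 fold change was -4.38 ± 0.22 (SE) in Cpt2L-/- against ff;ff (adjusted p = 1.91e-07, edgeR), a 20.7-fold lower level. In DKO against Rab30L-/- it was -3.32 ± 0.45 (adjusted p = 0.0012, edgeR) and in DKO against ff;ff -3.43 ± 0.32 (adjusted p = 9.37e-05, edgeR). Between DKO and Cpt2L-/- it was 0.95 ± 0.34 (adjusted p = 0.152, edgeR), and it passed the threshold at 1.2 (adjusted p = 0.016) without DKO replicate 3.

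For Saa1 and Saa2 the fold changes in DKO against Rab30L-/- were larger than that of Saa4 and their errors wider. Saa1 was lower by -7.50 ± 1.64 on the log2 scale in DKO against Rab30L-/- (adjusted p = 0.0161, edgeR), and Saa2 by -9.84 ± 2.40 (adjusted p = 0.0243, edgeR), with 7 to 17 counts of Saa2 per DKO library. Without Rab30L-/- replicate 2 these values were -5.52 and -7.01. Saa1 lost its call without DKO replicate 1 (adjusted p = 0.0517) or replicate 3 (0.0515), and Saa2 without any of the 4 DKO replicates (0.0628 to 0.0703). In Cpt2L-/- against ff;ff Saa1 was at -4.28 ± 1.39 (adjusted p = 0.0728, edgeR) and Saa2 at -4.67 ± 1.67 (adjusted p = 0.0961, edgeR), neither called, and without ff;ff replicate 4 the values were -2.29 and -1.60, the latter passing (adjusted p = 0.0384). DESeq2 called Saa1 there (adjusted p = 0.00119) and gave no adjusted p for Saa2, and the fit over all 24 libraries called both (0.0225 and 0.0429). DESeq2 and that fit each called 6 of the 10 members in this comparison, against 4. Saa3 was low in all groups, at 1.92, 2.067, 2.229 and 4.249 CPM in ff;ff against 0.256, 0.1258, 0.7116 and 0.1871 in Cpt2L-/-. It was at 4.375, 7.003, 5.236 and 1.517 CPM in Rab30L-/- and 0.3223 to 0.6277 in DKO. Neither pair of groups overlapped, although Cpt2L-/- libraries held only 2 to 11 counts of Saa3. It was called lower in both comparisons (-3.02 ± 0.49, adjusted p = 0.00065 and -3.31 ± 0.47, adjusted p = 0.000449, edgeR), and at -3.75 without Cpt2L-/- replicate 3.

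The inducible genes were then set against Saa4 within each liver, which asks whether they moved apart from the constitutive form. In ff;ff there were 0.224, 0.105, 0.0779 and 1.76 counts of Saa1 for each count of Saa4, and in Rab30L-/- 4.64, 10.4, 0.428 and 0.449. In Cpt2L-/- there were 0.0874, 0.653, 1.09 and 0.775, and in DKO 0.264, 0.213, 0.534 and 0.293. The high ratios were in replicates 1 and 2 of Rab30L-/- and replicate 4 of ff;ff, and the groups overlapped. An exact two-sided permutation test of the mean log2 ratio was run for 3 genes in 6 comparisons, where 4 livers against 4 can give no p below 0.0286. The smallest value was reached by Saa2 to Saa4 in DKO against Rab30L-/- (difference -3.85 ± 1.64 SE, exact permutation p = 0.0286, adjusted over the 18 tests 0.206) and by Saa3 to Saa4 in Cpt2L-/- against ff;ff (1.29 ± 0.47, exact permutation p = 0.0286, adjusted 0.206). With 1 liver left out these differences ran from -4.78 to -2.61 and from 0.92 to 1.51. An adjusted p under 0.05 would have needed at least 11 of the 18 tests at that smallest value, so the adjustment could hardly be passed by this design, and both of these ratios had groups that did not overlap. Saa1 to Saa4 differed by 0.98 ± 1.30 in Cpt2L-/- against ff;ff (exact permutation p = 0.457) and by -2.50 ± 1.21 in DKO against Rab30L-/- (exact permutation p = 0.0857). Leaving out 1 liver moved these to 0.44 to 1.94 and to -3.18 to -1.65.

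**Figure D3:**
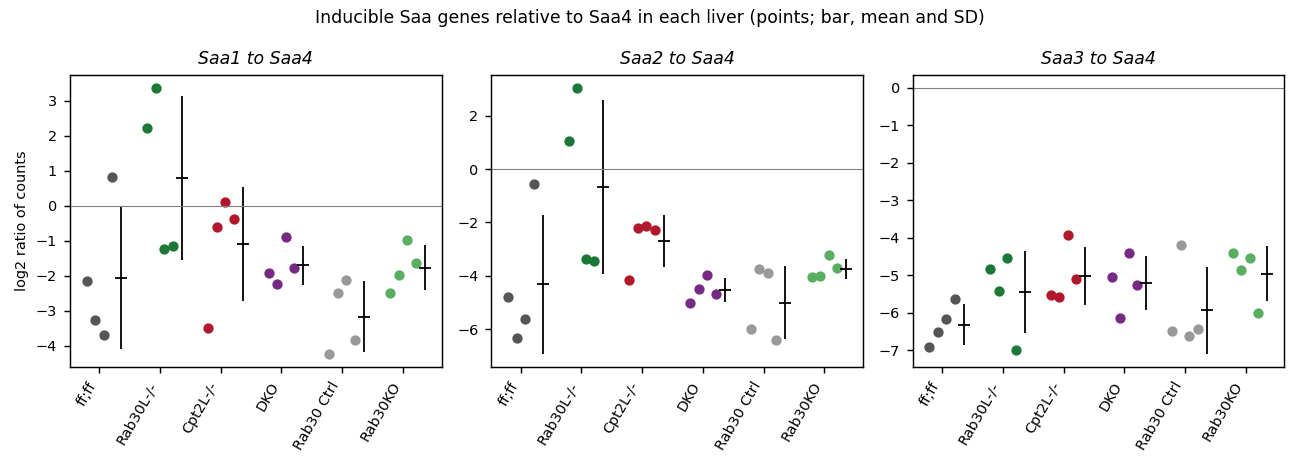
Log2 ratio of the counts of Saa1, Saa2 and Saa3 to those of Saa4 (y axis) in each liver of the 6 groups, with the mean and SD beside the points. The ratios of Saa1 and Saa2 were highest in replicates 1 and 2 of Rab30L-/- and replicate 4 of ff;ff, and for both genes the Cpt2-deleted groups lay within the range of the others.

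Haptoglobin and hemopexin, the abundant scavengers, were lower in all 3 comparisons of Cpt2-deleted with intact livers. Hp was at 3078, 3264, 2786 and 3905 CPM in ff;ff, 3817, 8677, 3072 and 3943 in Rab30L-/-, 1192, 1357, 2286 and 1385 in Cpt2L-/- and 1475, 1477, 1443 and 1870 in DKO. Hpx was at 3912, 2240, 2934 and 6705 CPM in ff;ff, 6901, 14870, 5065 and 5304 in Rab30L-/-, 1203, 1627, 2264 and 1914 in Cpt2L-/- and 1632, 1615, 1433 and 1698 in DKO. Among these groups Hp did not overlap between Cpt2-deleted and intact livers. Hpx overlapped there only between Cpt2L-/- replicate 3 (2264) and ff;ff replicate 2 (2240). The whole-body groups, which also have Cpt2, overlapped Cpt2L-/- for both genes. Hp was at 1878 to 2200 CPM in Rab30 Ctrl and 1282 to 4315 in Rab30KO, and Hpx at 2255 to 3246 and 1915 to 4760. The log2 fold change of Hp was -1.08 ± 0.21 in Cpt2L-/- against ff;ff (adjusted p = 0.00225, edgeR) and -1.64 ± 0.30 in DKO against Rab30L-/- (adjusted p = 0.00243, edgeR). That of Hpx was -1.18 ± 0.31 (adjusted p = 0.0144, edgeR) and -2.33 ± 0.33 (adjusted p = 0.000618, edgeR). In DKO against ff;ff Hp was at -1.06 ± 0.17 and Hpx at -1.31 ± 0.29 (adjusted p = 0.00167 and 0.00882, edgeR). The call of Hpx in Cpt2L-/- was lost with no filter on low counts (adjusted p = 0.0644).

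Of the orosomucoid genes, edgeR called Orm1 lower in 1 comparison and Orm2 and Orm3 in none, and no difference between them was tested. DESeq2 called Orm1 lower also in Cpt2L-/- against ff;ff and DKO against ff;ff (adjusted p = 0.0456 and 0.0116). Orm1, the leading one, was at 397.8, 231.8, 320.4 and 664.8 CPM in ff;ff, 116.1, 176.9, 373.9 and 235.3 in Cpt2L-/-, 727.5, 1465, 393 and 474.6 in Rab30L-/- and 129, 138.2, 226.7 and 299 in DKO. In the whole-body groups Orm1 was at 140.2 to 253.3 CPM (Rab30 Ctrl) and 137.6 to 446.3 (Rab30KO), overlapping both Cpt2-deleted groups. It was called lower in DKO against Rab30L-/- (-1.95 ± 0.46, adjusted p = 0.0142, edgeR) and not in Cpt2L-/- against ff;ff (-0.85 ± 0.38, adjusted p = 0.144, edgeR), where it passed at -1.2 without Cpt2L-/- replicate 3 and was at -0.514 (adjusted p = 0.331) without ff;ff replicate 4. The call in DKO was lost with no filter on low counts (adjusted p = 0.0646). Orm2 was at 5.848, 2.894, 4.318 and 66.34 CPM in ff;ff and at 11.2, 23.45, 55.05 and 17.65 in Cpt2L-/-. All 4 Cpt2L-/- livers lay above 3 of the 4 ff;ff livers and below the remaining one. The log2 fold change was 0.42 ± 1.12 (unadjusted p = 0.72, adjusted p = 0.83, edgeR), and without ff;ff replicate 4 it was 2.61 (adjusted p = 0.0118). In Rab30L-/- Orm2 was at 62.83, 479, 6.451 and 12.89 CPM and in DKO at 3.487, 1.998, 22.48 and 25.36, with a log2 fold change of -3.39 ± 1.64 that was not called (adjusted p = 0.173, edgeR) and came to -1.03 without Rab30L-/- replicate 2, while DESeq2 called it (adjusted p = 0.0394). The groups overlapped. Orm3 was at 9.339, 4.194, 16.58 and 5.01 CPM in ff;ff, 2.56, 4.276, 7.569 and 2.932 in Cpt2L-/-, and 6.696, 8.445, 14.49 and 8.53 in DKO. In Rab30L-/- it was at 13.35, 79.59, 0.9634 and 24.65, which held both the highest and the lowest of these 16 livers. The change in DKO against Rab30L-/- was -1.63 ± 1.08 (adjusted p = 0.303, edgeR), which came to -0.435 without Rab30L-/- replicate 2. In DKO against Cpt2L-/- (1.15 ± 0.34, adjusted p = 0.0978, edgeR) it passed at 1.55 (adjusted p = 0.0415) without Cpt2L-/- replicate 3, and DESeq2 called it there (0.0168).

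Orm2 and Saa1 parted in the Cpt2-deleted livers. In the 16 livers with Cpt2 there were 0.0942 to 0.383 counts of Orm2 for each count of Saa1. In Cpt2L-/- there were 9.72, 4.84, 4.53 and 3.04, and in DKO 0.61, 0.373, 5.58 and 4.16. All 4 Cpt2L-/- livers and DKO replicates 1, 3 and 4 lay above the 16 intact livers, and DKO replicate 2 lay among them. This ratio was chosen after the values were seen and was not tested.

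**Figure D4:**
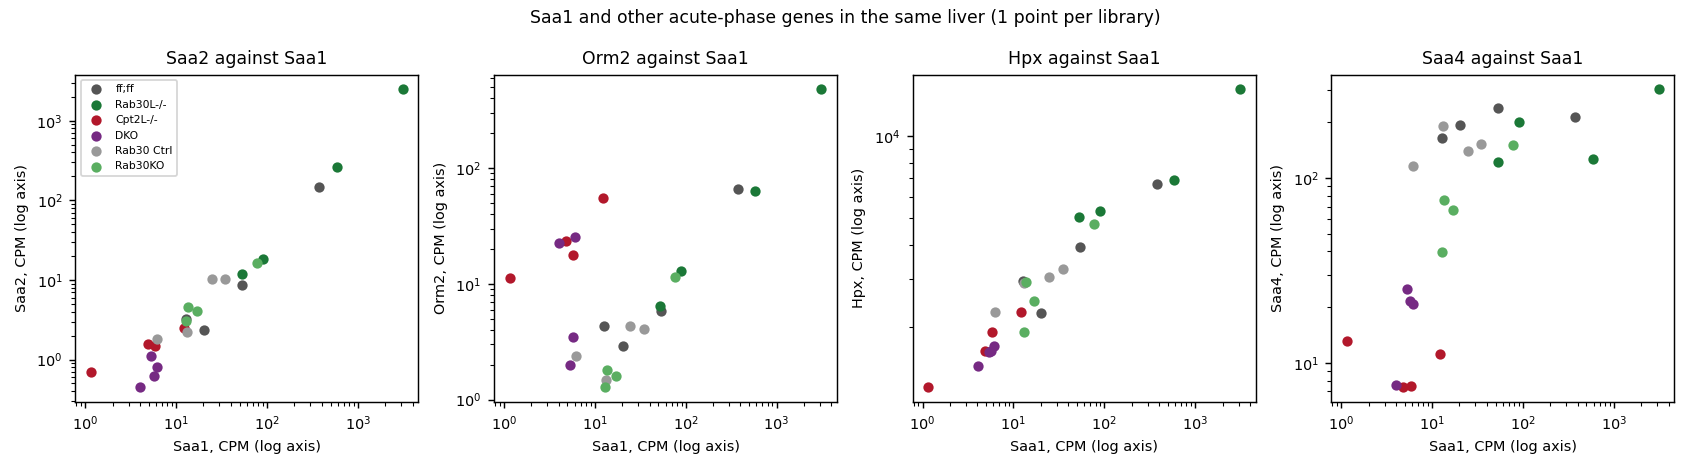
Saa2, Orm2, Hpx and Saa4 (y axes) against Saa1 (x axes), in CPM on log axes, 1 point per liver. Livers with more Saa1 had more Saa2 and Hpx, Cpt2L-/- livers stood apart for Orm2 at a Saa1 level of 1.152 to 12.16 CPM, and Saa4 was at most 25.14 CPM in Cpt2-deleted livers and at least 39.8 CPM in the others.

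After the group means were taken out, Saa1 and Saa2 deviated together over the 24 libraries (r = 0.957, rho = 0.941, r = 0.924 without the 2 libraries farthest from the median of Saa1). Saa1 also deviated with Hpx (r = 0.926, rho = 0.897, 0.867 without those 2), with Orm1 (0.86, 0.86 and 0.811) and with Orm2 (0.847, 0.776 and 0.73). Orm1 and Orm2 deviated together as well (r = 0.896, rho = 0.857, 0.857 without the 2 farthest), and Orm3 less so with either (r = 0.582 and 0.545). Saa1 with Saa4 gave r = 0.404, rho = 0.355 and 0.309. These are descriptions over libraries that share their litters and groups. Among 11591 other protein-coding genes, those most like Saa1 over all 24 libraries were Clu, the secreted chaperone clusterin (r = 0.888), Itih3 (0.885) and Itih4 (0.871), both inter-alpha-trypsin inhibitor heavy chains. Those most like Orm1 were Apcs, which encodes serum amyloid P (0.865), Fgl1, a fibrinogen-like liver protein (0.835), and Slc37a1 (0.824). Those most like Lcn2 were Lrg1, a leucine-rich serum glycoprotein (0.883), Fgl1 (0.857) and Itih3 (0.851). Within groups these values were 0.634 to 0.826.

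Lcn2 was spread widely within Rab30L-/- and Cpt2L-/-. It was at 4.978, 291.7, 11.64 and 47.09 CPM in Rab30L-/-, 5.499, 7.266, 8.496 and 19.79 in ff;ff, 1.408, 3.207, 12.1 and 1.123 in Cpt2L-/- and 3.906, 2.514, 4.288 and 4.687 in DKO. Replicate 2 of Rab30L-/- was far above all others, and every DKO liver lay below every ff;ff and every Rab30L-/- liver. Lcn2 was called lower in DKO against ff;ff (-1.42 ± 0.38, adjusted p = 0.0242, edgeR), a call lost without DKO replicate 1, 2 or 3 or ff;ff replicate 4 (adjusted p = 0.0501 to 0.0653) and in the fit over all 24 libraries (0.43). It was not called by edgeR in DKO against Rab30L-/- (-4.52 ± 1.42, adjusted p = 0.0557, edgeR), where it passed without Rab30L-/- replicate 1 (0.0306) or 3 (0.0462) and was at -2.45 without replicate 2. DESeq2 called it there (0.000391), as did the fit over all 24 libraries (0.00842). In Cpt2L-/- against ff;ff it was not called (-1.23 ± 0.77, adjusted p = 0.305, edgeR), with -0.707 (0.565) without ff;ff replicate 4 and a call at -2.43 (0.0089) without Cpt2L-/- replicate 3. The summed level of the 10 neutrophil genes was 3.09, 27.5, 8.17 and 3.64 CPM in Rab30L-/- and 1.67 to 3.3 in ff;ff. Of the defining markers, Ly6g was at 0 in every Rab30L-/- library, but it had at most 4 counts in any library and cannot tell groups apart. Replicate 2 of Rab30L-/- was highest for both Lcn2 and the neutrophil sum, whereas replicate 4, second for Lcn2, had a sum below that of replicate 3. In replicate 2 S100a8, S100a9 and Csf3r were at 3.63, 6.59 and 8.49 CPM, Ngp and Retnlg at 3.13 and 1.65, and Camp at 0. Csf3r, the only one of the 10 that could be tested in the comparisons of Rab30L-/-, was not called in them. The part of neutrophils in the Lcn2 level was not tested.

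Loss of Rab30 in livers with Cpt2 gave no call among the members by edgeR or DESeq2. In Rab30L-/- against ff;ff 0 of the 10 were called, beside 0.479% of all 13367 genes, and 1 of the 10 had an unadjusted p under 0.05 (edgeR), as did 11.2% of all genes, while DESeq2 also called 0. The fold change was above 0 for 9 of the 10 members, with a median of 1.39 that came to 0.521 without Rab30L-/- replicate 2. Saa1 was at 3.06 ± 1.76 (adjusted p = 0.57, edgeR) and Lcn2 at 3.10 ± 1.36 (adjusted p = 0.469, edgeR), which came to 1.07 and 1.04 without replicate 2 of Rab30L-/- and 5.06 and 3.63 without replicate 4 of ff;ff. Saa4 was at -0.11 ± 0.27, with a normal-quantile 95% interval of -0.65 to 0.42. In Rab30KO against Rab30 Ctrl 0 of the 10 were called, beside 0.022% of all 13656 genes, and 1 had an unadjusted p under 0.05 (edgeR), as did 2.21% of all genes, while DESeq2 called 0.

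In the whole-body mice the members stood out in 1 liver. Saa1 was at 13.57, 16.9, 77.24 and 12.92 CPM in Rab30KO and 6.198, 24.62, 34.8 and 13.21 in Rab30 Ctrl. Lcn2 was at 5.674, 3.41, 34.98 and 3.942 CPM in Rab30KO against 2.713 to 12.82 in Rab30 Ctrl. Replicate 3 of Rab30KO was the highest of its group for all of the Saa genes, Lcn2, Hp, Hpx and the Orm genes, and without it the fold change of Saa1 turned from 0.61 to -0.45 and that of Lcn2 from 1.12 to -0.36. The summed level of the 8 Kupffer cell and macrophage markers was 711, 268, 1330 and 421 CPM in Rab30KO and 372 to 616 in Rab30 Ctrl, also highest in replicate 3, and the part of these cells was not tested. Saa4 was at 76.07, 66.69, 150.9 and 39.8 CPM in Rab30KO and 116.4, 139.1, 151.9 and 189.7 in Rab30 Ctrl, and the groups overlapped. Its log2 fold change was -0.84 ± 0.35 (unadjusted p = 0.0355, adjusted p = 1, edgeR).

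With Cpt2 deleted in both groups, DKO against Cpt2L-/- called 0 of the 9 members tested, beside 2.71% of all 13306 genes, with 3 at an unadjusted p under 0.05 (edgeR), as were 21.7% of all genes. DESeq2 called 2 of them, Saa4 (0.95, adjusted p = 0.0476) and Orm3 (1.16, adjusted p = 0.0168). Saa3 was left out there by the filter on low counts. The interaction asks whether the change with Cpt2 differed between livers with and without Rab30, and it called 0 of the 10 members, beside 4.06% of all 14063 genes, with 2 at an unadjusted p under 0.05 (edgeR), as were 21.7% of all genes, and 0 called by DESeq2. It was below 0 for 9 of the 10, with a median of -1.12. Without Rab30L-/- replicate 2 it was below 0 for 7, with a median of -0.615, and Hpx came to -0.662. With all livers it was 1.06 ± 0.48 for Saa4 (adjusted p = 0.214, edgeR) and -1.14 ± 0.48 for Hpx (adjusted p = 0.178, edgeR).

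Other acute-phase genes were lower as well, and so were genes that fall in an acute-phase response. Of 18 other positive acute-phase genes, 12 were called lower and 1 higher in Cpt2L-/- against ff;ff (median log2 fold change -0.997), and 11 lower and 0 higher in DKO against Rab30L-/- (median -1.341). The lists are to be read beside all genes, of which 11.9% were called lower and 11.9% higher in the first comparison and 15.8% lower and 14.9% higher in the second. In the first, Mt2, a metallothionein, was at -2.46 ± 0.66, Serpina3n, a protease inhibitor, at -1.76 ± 0.29 and Fgg, a fibrinogen chain, at -1.75 ± 0.36, while Cd14, a receptor for bacterial lipopolysaccharide, was the gene called higher (1.26 ± 0.41) and is named after its value was seen. In the second, Apcs was at -2.76 ± 0.64, Fgg at -2.65 ± 0.32 and Fga, another fibrinogen chain, at -2.60 ± 0.30. Of 9 negative acute-phase genes, 7 were called lower in Cpt2L-/- (median -0.962) and 8 in DKO against Rab30L-/- (median -0.841), and 0 higher in both. Serpina6, which encodes the corticosteroid carrier of serum, fell by 4.04 and 3.01 on the log2 scale. Alb, albumin, fell by 1.41 in Cpt2L-/-, and Trf, transferrin, by 1.52, while Ahsg, fetuin A, fell by 1.43 in DKO against Rab30L-/- and Trf by 1.29. Alb is also among the hepatocyte markers, of which 3 of 6 were called lower in Cpt2L-/- and 2 of 6 in DKO against Rab30L-/-, and the part of hepatocyte content was not tested.

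**Figure D5:**
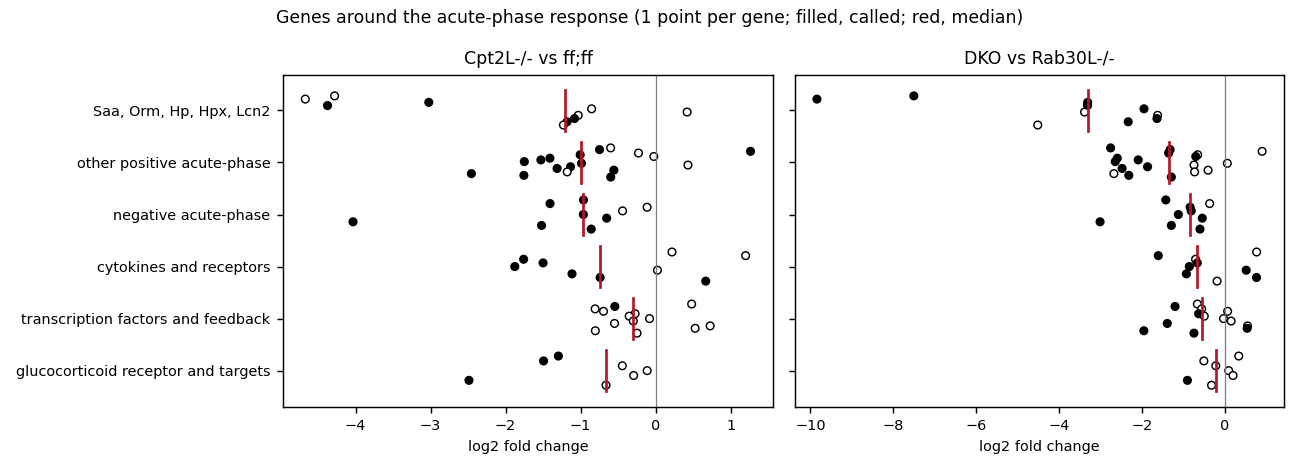
Log2 fold change (x axis) of the 10 members and of genes around the acute-phase response, 1 point per gene, filled where called, with the median of each list in red. The positive and the negative acute-phase lists both lay mostly below 0, with medians of -0.997 and -0.962 in Cpt2L-/- against ff;ff.

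Among 12 cytokines and receptors, 9 were tested. In Cpt2L-/- against ff;ff 5 were called lower and 1 higher, with Il6ra, the interleukin 6 receptor, at -1.88 ± 0.20, Il1r1, the interleukin 1 receptor, at -1.76 ± 0.31 and its partner Il1rap at -1.50 ± 0.17. In DKO against Rab30L-/- 4 were called lower and 2 higher, with Il1b, the cytokine interleukin 1 beta, at -1.61 ± 0.56, Lifr, the receptor of leukemia inhibitory factor, at -0.93 ± 0.12 and Il6ra at -0.86 ± 0.21. Between DKO and Cpt2L-/- Il6ra was higher in DKO (0.89 ± 0.17, adjusted p = 0.0242, edgeR), with 3 of the 9 called higher and 1 lower. Of 13 transcription factors and feedback genes, 1 was called lower in Cpt2L-/-, no more than the 11.9% of all genes called lower there, and this was Cebpa (-0.54 ± 0.17), which encodes C/EBP alpha. In DKO against Rab30L-/- 5 were called lower and 1 higher, with Socs3, a feedback inhibitor of STAT3 signalling, at -1.96 ± 0.24, Nfkbiz, a regulator of NF-kB, at -1.39 ± 0.25 and Cebpa at -1.21 ± 0.21.

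Of 7 genes of the glucocorticoid receptor and its targets, 3 were called lower in Cpt2L-/- against ff;ff, where Tsc22d3, a target of the receptor, was at -2.49 ± 0.20, Fkbp5, another target, at -1.49 ± 0.24 and Dusp1, a phosphatase, at -1.30 ± 0.31. In DKO against Rab30L-/- 1 was called lower, Tsc22d3 at -0.91 ± 0.21, which was also the gene called in Rab30L-/- against ff;ff (-1.07 ± 0.17). Of 12 clearance proteins and receptors, 10 were tested in Cpt2L-/- against ff;ff, with 3 called higher and 3 lower. Cd36, the fatty acid and scavenger receptor, was at 3.40 ± 0.31, Hmox1, haem oxygenase 1, at 2.05 ± 0.53 and Cd163, the haptoglobin-haemoglobin receptor of macrophages, at -1.56 ± 0.19. In DKO against Rab30L-/- 11 were tested, with Cd36 at 2.96 ± 0.27, Scarb1, a receptor for high density lipoprotein, at -1.60 ± 0.20 and Lrp1, a receptor that clears haem bound to hemopexin, at -1.15 ± 0.25.

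The same lists in DKO against ff;ff, which shares the ff;ff livers with Cpt2L-/- against ff;ff, are to be read beside 8.24% of all genes called lower and 7.87% higher. Of 18 positive acute-phase genes 7 were called lower and 0 higher (median -0.705), with Fgg at -2.19 ± 0.22, Fga at -2.06 ± 0.20 and Serpina3n at -1.62 ± 0.19. Of the 9 negative ones 6 were lower (median -0.866), with Trf at -1.07 ± 0.32, Ahsg at -1.004 ± 0.21 and Fetub, a serum protein related to fetuin A, at -0.97 ± 0.13. Of the cytokine receptors Il6ra was at -0.999 ± 0.19, Il1rap at -0.93 ± 0.17 and Lifr at -0.67 ± 0.15, with 3 called lower and 1 higher. The transcription factor genes called there were Cebpb, which encodes C/EBP beta (-1.03 ± 0.30), Cebpa (-0.86 ± 0.21) and Nfkbiz (-0.62 ± 0.19). Tsc22d3 was at -1.97 ± 0.21 and Fkbp5 at -1.05 ± 0.29, the 2 glucocorticoid targets called. Of the clearance list Cd36 was at 3.08 ± 0.36, Scarb1 at -1.18 ± 0.20 and Lrp1 at -0.85 ± 0.23, with 1 called higher and 3 lower.

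In DKO against Cpt2L-/- the calls in these lists were 4 of 9 cytokine and receptor genes and 1 of 18 positive acute-phase genes, beside 2.71% of all genes. Hamp, which encodes the iron hormone hepcidin, was called higher (0.87 ± 0.20), as were Il6ra, Il1rap (0.57 ± 0.13) and Lifr (0.45 ± 0.11), and Tnfrsf1a, a receptor for tumour necrosis factor, was lower (-0.48 ± 0.12). The interaction, beside 4.06% of all genes, was called for Alb (1.04 ± 0.24) and for 3 of the 9 cytokine and receptor genes, which were Osmr, the oncostatin M receptor (1.504 ± 0.27), Il1rap (0.84 ± 0.20) and Tnfrsf1a (-0.85 ± 0.24). It was also called for Dusp1 (1.63 ± 0.44) and Tsc22d3 (1.59 ± 0.29) of the glucocorticoid list. In these livers the change of these genes with Cpt2 was thus called different with and without Rab30. Only ff;ff and DKO are labelled as littermates, so litter cannot be told apart from genotype. These calls were not repeated with a liver left out.

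Most macrophage markers were also lower in DKO against Rab30L-/-. Of the 8 Kupffer cell and macrophage markers, 6 were called lower there and 1 higher, Cd68 (2.44 ± 0.37), a lysosomal protein. Among all genes 15.8% were called lower and 14.9% higher there. The summed level of these markers was 218, 643, 353 and 246 CPM in Rab30L-/- and 163 to 217 in DKO. In Cpt2L-/- against ff;ff 3 of the markers were called lower and Cd68 higher (2.60 ± 0.22), beside 11.9% of all genes in each direction. The sums there were 177 to 238 CPM in Cpt2L-/- and 169 to 305 in ff;ff. The 6 stellate cell and fibroblast markers summed to 223 to 251 CPM in Rab30L-/- and 243 to 286 in DKO, and the 6 sinusoidal endothelial markers to 166 to 197 and 180 to 239. Of the bile duct markers, Sox9 was called lower in both comparisons (-2.26 ± 0.35 in Cpt2L-/- and -2.02 ± 0.34 in DKO). The adipocyte markers summed to no more than 1.3 CPM in any library and none was tested, and Retn was at 0 in all 4 libraries of every group. The part of other cell types in the members' levels was not tested.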

How the data were processed

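Whole-liver RNA-seq of 24 male mice, 4 in each of 6 groups, was analysed from the deposited tables. The raw counts per gene and the FPKM values were made by the authors, whose processing notes name HISAT2, GRCm38/mm10 and DESeq2. The counting tool, its annotation and its use of strand were not given in the sources used here, so reads of overlapping genes may be mixed. Columns were matched to samples through the labels, and replicates were numbered in the order of the deposit. Nothing pairs livers across groups.

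Counts were tested with edgeR 4.0.16 in R 4.3.3 (filterByExpr, TMM, robust quasi-likelihood F test) on the 8 libraries of each comparison, or 16 for the interaction, after the script was tested on simulated data. The SE is the absolute log2 fold change over the square root of F. The 95% intervals take a normal quantile of this SE and are narrower than the F test implies. A gene was called at an adjusted p under 0.05 and at least 1.2-fold. Ratios to Saa4 used counts with a prior count of 0.5 and an exact two-sided permutation test over 70 assignments. Correlations used log2(CPM + 0.1). FPKM values were tested only as an alternative for the ratios. Transcripts and coding sequences came from GENCODE and promoters from RefSeq, both on GRCm38. Totals of 11801027 to 24497738 counts limit precision for genes with few counts, such as Saa3. The authors' tables of pairwise comparisons, with their fold changes and p-values, and their table of normalized values were not used.

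The members and gene lists were chosen with earlier results of these data known. All members were named, with Rab30 and Cpt2, the 3 protein-coding genes most like Saa1, Orm1 and Lcn2 (mean CPM of at least 1), and up to 3 called genes per list with the largest change in a comparison. Alternatives were DESeq2 1.42.0 size factors and its Wald test, other filters on low counts, 1 fit over all 24 libraries, another prior count of 5, the authors' FPKM with 0.01 added, and each replicate left out. The members' medians with a replicate left out were added after seeing the data. Per the paper's methods, mice came from several litters and parents, with littermates where possible, but the litter of each liver is not given, and p-values measure the spread between these livers.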

Additional observations from a re-analysis of the deposited data

Results flagged for a closer look

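Of 60 checks, each on the 4 livers of a group for a member, 4 found a highest or lowest liver far from the other 3. Chance alone gives about 1 such result in 20 checks for normally distributed values, which the CPM levels of these genes need not be. In Rab30KO the highest Saa1 level, 77.24 CPM, and the highest Orm2 level, 11.47 CPM, were both in replicate 3, whose macrophage and neutrophil marker sums (1330 and 16.2 CPM) were also the highest of its group, and their part was not tested. In DKO the lowest Saa4 level, 7.537 CPM, was in replicate 3. The highest Hp level of DKO, 1870 CPM, was in replicate 4, still below the lowest ff;ff liver at 2786 CPM.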

How the results depend on the processing

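Of 632 values of a member's log2 fold change with 1 replicate left out, 573 kept their direction and their side of the threshold, 36 turned direction, 13 gained a call and 10 lost one, and of 333 values under the other settings 317 kept both, 13 gained a call and 3 lost one, while DESeq2 gave no adjusted p for another 3. The counts of called genes varied more. In DKO against Cpt2L-/- (360) DESeq2's Wald test called 1032, no filter 705 and the fit over 24 libraries 114, and 57 to 445 were called with 1 replicate left out. In Rab30L-/- against ff;ff (64) the Wald test called 298, no filter 240 and a minimum of 10 counts in every library 25, with 23 to 93 on leaving out a replicate. In Rab30KO against Rab30 Ctrl (3) these settings called 10, 6 and 0, and the fit over 24 libraries 9, with 0 to 4 on leaving out a replicate. The interaction (571) had 1080 with the Wald test and 374 with the fit over 24 libraries, and 300 to 679 with a replicate left out. Of the members, the Wald test called 2 in DKO against Cpt2L-/-, and leaving out a replicate gave 0 to 1. With a prior count of 5 the ratio to Saa4 was -3.42 for Saa2 in DKO against Rab30L-/- and no longer at the smallest p, 1.59 for Saa3 in DKO against ff;ff and now at it, and 0.15 for Saa2 in DKO against ff;ff, which was -0.21 before. The cause was not tested for any of these.

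Leaving out a replicate turned the direction of values that were not called, given here as their lowest and highest log2 fold change. In Cpt2L-/- against ff;ff Orm2 ran from -0.191 to 2.61. In DKO against ff;ff Orm2 ran from -1.08 to 1.62 and Orm3 from -0.155 to 0.634. In DKO against Cpt2L-/- Saa1 ran from -0.502 to 0.432, Orm1 from -0.43 to 0.171, Hp from -0.0849 to 0.257, Hpx from -0.268 to 0.0144 and Lcn2 from -0.507 to 1.01. In Rab30L-/- against ff;ff Saa4 ran from -0.441 to 0.0522. In Rab30KO against Rab30 Ctrl Saa1 ran from -0.447 to 1.03, Saa2 from -0.668 to 0.548, Saa3 from -0.582 to 0.951, Orm1 from -0.419 to 0.332, Orm2 from -0.984 to 0.673, Orm3 from -0.768 to 0.504, Hp from -0.0865 to 0.507, Hpx from -0.234 to 0.232 and Lcn2 from -0.358 to 1.93. In the interaction Saa3 ran from -0.613 to 0.437 and Orm3 from -1.11 to 0.597. The ratios to Saa4 that turned ran from -0.17 to 1.33 for Saa1 and -0.88 to 1.05 for Saa2 in DKO against ff;ff, and for Saa3 from -0.28 to 0.55 in DKO against Rab30L-/- and -0.46 to 0.18 in DKO against Cpt2L-/-. No paired analysis was possible because the labels give no replicate numbers that join livers across groups. Few counts limit Saa3 and Saa2 in Cpt2-deleted livers.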
